A study of Homo sapiens with 34 samples.

Results

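The stretch of 8q24 described here runs over 350 kb of chromosome 8, chr8:127350001-127700000 on hg38, from inside the long noncoding RNA gene CASC8 to just before CASC11. Its members are the peaks of 34 lists whose midpoint lies in it, 2100 of 1034303 peaks in all. Of these, 2011 came from the 18 COLO320 DM libraries and 89 from the 16 PC3 DM libraries. Peaks were taken by position alone, but the interval itself was picked with earlier results of these data known, among them the ecSE2-linked domain at CCAT2 and the marking of POU5F1B by line.

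Each library was made by CUT&Tag, which uses a tethered transposase to cut out chromatin bound by an antibody, from 50000 nuclei. The antibody, raised in rabbit, is labelled anti-H3K9me, and the labels leave the degree of methylation unsaid. COLO320 DM is an established line from a colorectal adenocarcinoma and PC3 DM one from a prostatic adenocarcinoma. Cells were transfected with 700 ng of sgRNA plasmid, and nuclei were taken 3 days later. COLO320 DM had 3 libraries each of an empty vector, of the single perturbations ecSE1, ecSE2, ecSE3 and ecSE4, and of a combination called ecSEcombo. PC3 DM had 2 libraries of the vector, 3 each of ecSE1, ecSE2 and ecSE6, 2 of ecSE7 and 3 of ecSEcombo. All groups, vector included, were transfected. The labels name neither the effector that the guides bring nor where the elements lie or what the combination holds, and they do not say whether ecSE2 is the same DNA in both lines. Nothing says that replicates were separate cultures, so the p-values below rest on a spread between libraries that may be technical only.

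Methylation of lysine 9 of histone H3 is the classical mark of silent heterochromatin, and its higher degrees are bound by HP1 proteins. In many colorectal and prostate tumours 8q24 is gained or carried on extrachromosomal DNA (ecDNA), circles that can hold MYC in many copies. The stretch lies on the side of MYC that holds a run of cancer-associated noncoding RNA genes.

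The RefSeq table on GRCh38.p14 places 5 genes over the stretch. CASC8 (chr8:127289676-127482139) is a long noncoding RNA gene whose body fills the first part of it. CASC21 (chr8:127244637-127392631), also noncoding, overlaps CASC8 and ends within the stretch. CCAT2 (chr8:127400399-127402150) is a noncoding RNA gene named for its link to colon cancer, and lies inside CASC8. POU5F1B (chr8:127413447-127417224) is a retrogene copy of POU5F1, the gene of the stem cell factor OCT4, and also lies inside CASC8. Beyond CASC8 comes a span of 181 kb with no gene in the table, then LOC105375754 (chr8:127663280-127669024), a noncoding RNA gene of no known role here. The table gives neither strand nor exons, so exon, intron and UTR positions are not stated.

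In COLO320 DM the stretch was densely marked in every library. The vector libraries covered 69.4, 63.4 and 85.2 kb of it with peaks, the ecSE1 libraries 55.9, 76.9 and 77.7 kb, and the ecSE2 libraries 84.4, 76.7 and 90.6 kb. The ecSE3 libraries covered 81.4, 75.2 and 74.1 kb, those of ecSE4 75.2, 71.5 and 78.1 kb, and those of the combination 57.7, 81.6 and 80.7 kb. The lowest libraries were ecSE1 replicate 1 and ecSEcombo replicate 1, and the groups overlapped throughout. The longest list of the line, ecSE1 replicate 2 with 125214 peaks, had the most peaks in the stretch, 181 against 91 to 129 in the other 17 libraries, but not the most covered length.

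In PC3 DM the same interval held scattered single peaks. The vector libraries covered 1.89 and 1.62 kb, the ecSE1 libraries 2.98, 0.207 and 1.18 kb, and the ecSE2 libraries 1.45, 1.81 and 1.015 kb. The ecSE6 libraries covered 1.27, 1.29 and 1.37 kb, those of ecSE7 0.673 and 0.219 kb, and those of the combination 3.88, 1.16 and 0.673 kb. The highest library, ecSEcombo replicate 1, also had the longest list of its line, and held 20 of the 89 peaks. The ranges of the lines, 0.207 to 3.88 kb and 55.9 to 90.6 kb, did not overlap.

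**Figure D1:**
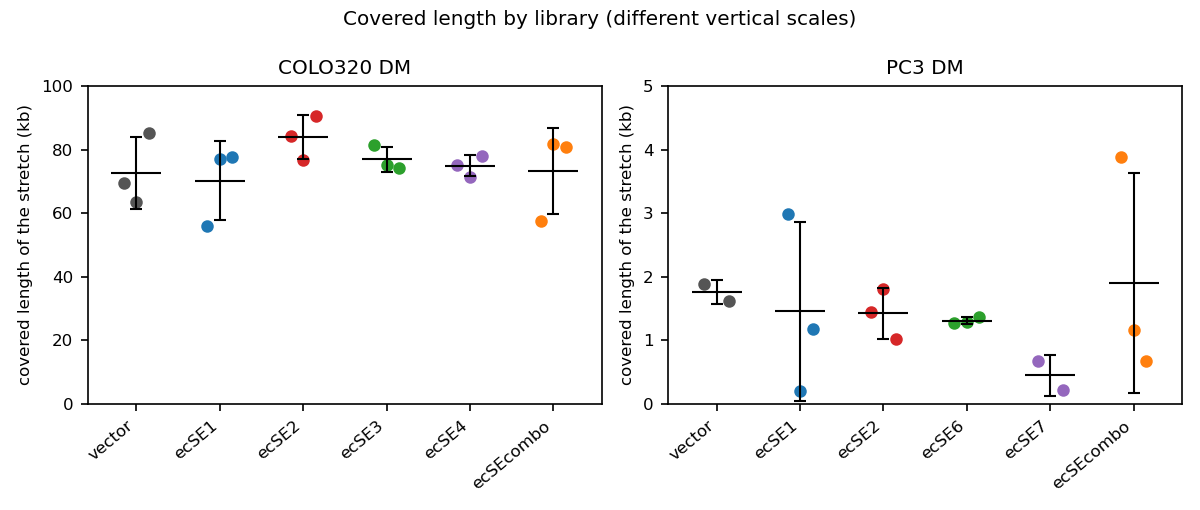
Covered length of the stretch in kb (vertical axis, a different scale for each line) by perturbation group, with 1 point per library, the mean as a line and the SD as bars. COLO320 DM libraries lie between 55.9 and 90.6 kb with overlapping groups, and PC3 DM libraries between 0.207 and 3.88 kb.

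The mean covered length was 75.3 kb ± 9.14 (SD, n = 18) in COLO320 DM and 1.42 kb ± 0.941 (SD, n = 16) in PC3 DM. The difference of 73.9 kb had a two-sided permutation p of 2e-05, the smallest that 100000 resamples can give (6e-05 adjusted over the 3 tests of covered length). Among 8127 tiles of the same length over the autosomes and X, this one had the highest mean cover in COLO320 DM, where the median tile had 0.805 kb. In PC3 DM it stood at rank 2350, with 1.42 kb against a median tile of 0.974 kb. The interval was picked with the marking of POU5F1B by line known. The p-value and the ranks are therefore a description and no support for a difference between lines.

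The lines also differed in what lay under the peaks. Each deposited peak gives a fold and a p-value from which the number of fragments at the summit and the local background, the fragments that MACS2 takes as usual there, can be recovered. The median local background of the stretch's peaks was 64.1 to 123 fragments in COLO320 DM libraries. That was 119 to 163 times the lowest background of the same list, taken over 2000 of its peaks drawn at random. In PC3 DM the median local background was 0.184 to 0.586 fragments, or 1.00 to 1.78 times the lowest. The median summit held 155.5 to 269 fragments in COLO320 DM and 4.5 to 10.0 in PC3 DM, while the authors' median fold over background was lower in COLO320 DM, 2.19 to 2.40 against 4.61 to 6.81. The local background moves with copy number and with the mark itself, and which of these set the difference between lines cannot be told apart here.

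Peak presence by 5 kb bin gave the same picture at finer scale. Fisher's exact test over 120164 bins of the genome, with Benjamini-Hochberg adjustment, called 2.88% of them higher in COLO320 DM. In the stretch 66 of 70 bins were called, all higher in COLO320 DM, among them the bins over POU5F1B, whose difference was known. As the interval was picked with that difference known, these calls are likewise a description. The 4 others began at 127360001, 127490001, 127545001 and 127660001, where 4 to 12 COLO320 DM libraries had a peak. The bins over POU5F1B had a peak in 18 and 17 of 18 COLO320 DM libraries and in 0 of 16 PC3 DM libraries.

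No difference in covered length between perturbed and vector libraries passed the test. The 15 perturbed COLO320 DM libraries covered 75.9 kb ± 9.03 (SD) and the 3 vector libraries 72.7 kb ± 11.3 (SD), a difference of 3.16 kb with a two-sided exact permutation p of 0.598. This difference changed sign, to -1.47 kb, without vector replicate 2. In PC3 DM, 14 perturbed libraries covered 1.37 kb ± 0.999 (SD) and the 2 vector libraries 1.755 kb ± 0.185 (SD), and the difference of -0.387 kb had an exact permutation p of 0.483.

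**Figure D2:**
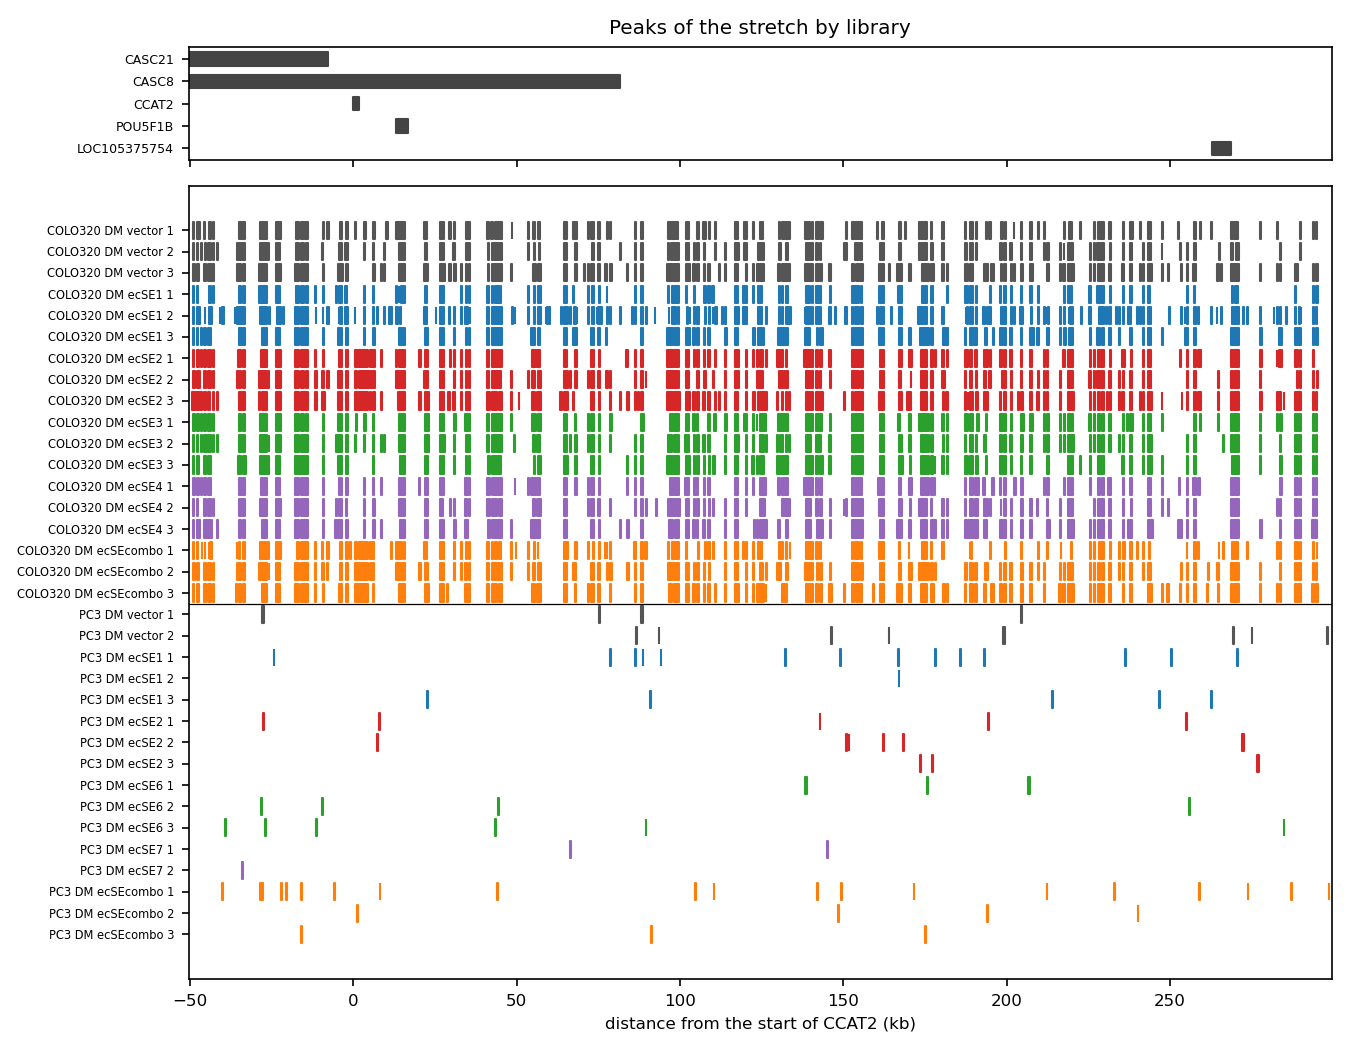
Peaks of the stretch in each library (rows, coloured by perturbation, with the replicate number after the group) against the distance from the start of CCAT2 in kb (horizontal axis), with the genes as bars above. COLO320 DM rows hold peaks along the whole stretch and share part of their positions, ecSE2 and ecSEcombo rows fill in just right of 0 kb, and PC3 DM rows hold 1 to 20 peaks each.

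Part of the marked positions in COLO320 DM recurred in every library. In all, 44.0% of the stretch was covered in at least 1 COLO320 DM library and 6.14% in at least 1 PC3 DM library. Constant sites, runs of at least 100 bp covered in all 18 COLO320 DM libraries, numbered 54 in the stretch, of 761 in the genome, 212 of them on chromosome 8. They were 100 to 1432 bp long, with a median of 355 bp, and added up to 22.5 kb or 6.42% of the stretch. By number of constant sites the stretch ranked 3 among the tiles. In PC3 DM, 63 sites in the genome were constant over its 16 libraries, and 0 lay in the stretch.

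The sites spread over the whole interval. Of the 54, 24 lay in CASC8 and 30 in no gene, and none lay in CCAT2 or POU5F1B. The longest, chr8:127372443-127373874 in CASC8 and CASC21, was also among the highest over background, with a median fold of 4.53 over libraries. It was the site most often met in PC3 DM, where 5 of 16 libraries had a peak on it. The site with the highest median fold, 4.81, lay past the end of CASC8 at chr8:127488512-127489081, and 2 PC3 DM libraries had a peak there. Over all 54 sites, 15 were met by at least 1 PC3 DM peak. The highest summit stayed within 500 bp across the 18 libraries at 29 of the sites, and within 5 bp at chr8:127475654-127475869 in CASC8. The widest gap between neighbouring sites, 15.9 kb from 127406780 to 127422723, contained POU5F1B.

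Over all COLO320 DM libraries 23.1% ± 3.05 (SD, n = 18) of the CASC8 part and 22.0% ± 3.09 (SD, n = 18) of the span without genes were covered, but the groups differed in this. The ecSE2 libraries covered 27.7% ± 0.772 and 23.2% ± 2.75 (SD, n = 3), and the ecSEcombo libraries 24.4% ± 3.47 and 19.9% ± 4.86 (SD, n = 3), the CASC8 part being higher in each of these 6 libraries. The means had the same order in the vector libraries, at 22.2% ± 2.21 and 21.8% ± 3.79, and with ecSE1, at 21.0% ± 2.79 and 20.9% ± 4.25 (SD, n = 3 each). The order of the means was the other way with ecSE3, at 22.2% ± 1.96 and 23.4% ± 1.24, and with ecSE4, at 21.2% ± 0.971 and 23.04% ± 0.883 (SD, n = 3 each). By segments of 50 kb over all 18 libraries, mean cover was 13.6 kb ± 0.970 (SD) in the first and 6.29 kb ± 1.54 (SD) in the last, which borders CASC11. The second segment, which holds CCAT2 and POU5F1B, had more than the first with ecSE2, 15.5 against 15.0 kb, and with ecSEcombo, 13.8 against 13.2 kb, and less in the 12 other libraries, 9.90 against 13.4 kb. Median local background in the first segment was 168 fragments with ecSE2, 111 with ecSEcombo and 87.6 in the others.

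The ecSE2 libraries differed from the rest of their line at CCAT2. This domain was known from earlier results of these data, so its values are given as a description, with no test. In the 5 kb bin that holds CCAT2, chr8:127400001-127405000, ecSE2 libraries had 3728 bp covered ± 190 (SD, n = 3) and ecSEcombo libraries 3974 bp ± 397 (SD, n = 3). Vector libraries had 408 bp ± 514 (SD, n = 3), ecSE1 libraries 417 bp ± 124 (SD, n = 3), ecSE3 libraries 547 bp ± 490 (SD, n = 3) and ecSE4 libraries 317 bp ± 55.0 (SD, n = 3). The highest of these 12 other libraries had 986 bp, below the lowest ecSE2 library with 3510 bp and the lowest ecSEcombo library with 3515 bp.

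Across the genome few bins passed a test of covered length. With limma on log2(bp covered + 100) over 40477 bins, ecSE2 against vector called 0.00247% of bins, which is 1 bin, and it was this one, higher by 3.52 ± 0.60 on the log2 scale (SE). The combination against vector called 4 bins, 0.00988%, of which this was 1, at 3.61 ± 0.60 (SE). Against the mean of ecSE1, ecSE3 and ecSE4, ecSE2 again called 0.00247%, the same single bin, at 3.08 ± 0.49 (SE). These comparisons share libraries, and as the bin was known they are no support for it. The calls were lost with a pseudocount of 10 bp and with bins of a peak in only 1 library admitted.

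The other single perturbations called no bin of the 70. limma called 0.00247% of bins in the genome with ecSE1, 0.00494% with ecSE3 and 0.00494% with ecSE4. At an unadjusted p under 0.05, 2, 2 and 3 bins of the stretch passed with ecSE1, ecSE3 and ecSE4. In PC3 DM, 11 bins of the stretch had peaks enough to be tested among 63046, and limma called 0.0% in the genome with each of the 5 perturbations. At an unadjusted p under 0.05, 0 of the 11 passed with ecSE1 and 1 each with ecSE2, ecSE6, ecSE7 and ecSEcombo. The share of all bins under that unadjusted p is not given for either line, so these counts are no result about the stretch.

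The domain itself was a broad peak that began within CCAT2 in all 6 libraries and had its summit past the end of the gene. In ecSE2 replicates 1, 2 and 3 it ran from 127401861 to 127405020, from 127402103 to 127405077 and from 127401802 to 127405023. Its summits held 6918, 5016 and 5394 fragments over local backgrounds of 2255, 1584 and 1569. In the combination the summits held 2130, 3534 and 3250 fragments over 558, 999 and 909. The peak began at 127402105 in replicate 1 and earlier in CCAT2, at 127400799 and 127400797, in replicates 2 and 3. The summit fell between 127403780 and 127403818 in all 6 libraries, 1.64 kb past CCAT2 at its usual place of 127403785. By q-value this peak ranked 1, 2 and 2 in the lists of the ecSE2 libraries and 4, 4 and 4 in those of the combination. In the other 12 COLO320 DM libraries the highest summit of the 15 kb around CCAT2 held 171 to 313 fragments over 56.2 to 85.7, and its rank ran from 97 to 305.

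Summit and local background were both high at the domain. The authors' fold at the highest summit of the 15 kb was 3.22 ± 0.190 (SD, n = 3) in ecSE2 libraries and 3.64 ± 0.149 (SD, n = 3) in the combination. In the others it was 3.29 ± 0.250 (SD, n = 12), but at other peaks, with summits from 127396495 to 127396642 or at 127406703. These folds thus belong to different places, and the fold at the domain itself was not compared. Over the 15 kb, covered length was 7144 bp ± 332 (SD, n = 3) with ecSE2, 6249 bp ± 327 (SD, n = 3) with the combination and 2719 bp ± 15.9 (SD, n = 3) with the vector. PC3 DM libraries had at most 1 peak there. Those with one were ecSE2 replicates 1 and 2 and ecSEcombo replicates 1 and 2, with summits of 6, 7, 4 and 5 fragments, and in ecSE2 these lay in the third bin, not in that of CCAT2. A limma fit over both lines found no bin of 120460 whose effect differed between lines after adjustment for ecSE1, ecSE2 or ecSEcombo. In the stretch 0, 1 and 1 bins had an unadjusted p under 0.05, again without the share of all bins beside them. For the CCAT2 bin the ecSE2 effect was larger in COLO320 DM by 3.52 ± 1.29 (SE) and was not called.

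**Figure D3:**
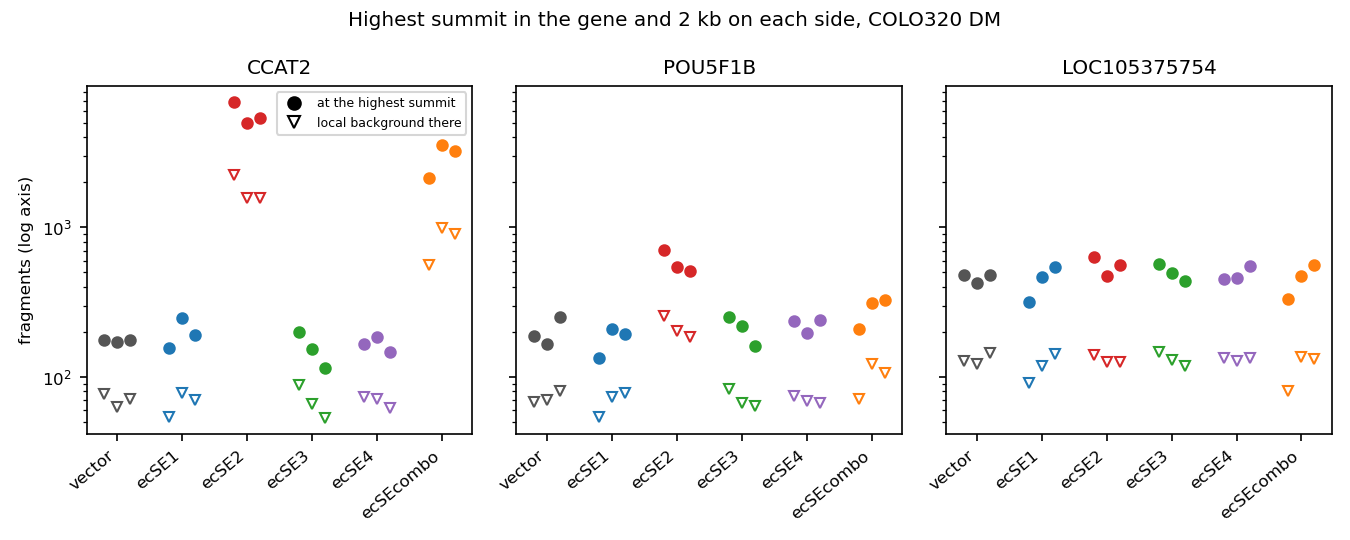
Fragments at the highest summit (filled circles) and local background there (open triangles) on a log axis, for the gene and 2 kb on each side, 1 pair of points per COLO320 DM library by perturbation. At CCAT2 the ecSE2 summits sit between 5016 and 6918, at POU5F1B between 511 and 701, and at LOC105375754 between 477 and 632, beside 318 to 571 in the other groups.

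POU5F1B, further along by 9.66 kb from the domain's summit to its start, was the marked gene of the stretch that PC3 DM lacked. With 2 kb on each side it had a peak in 18 of 18 COLO320 DM libraries and in 0 of 16 PC3 DM libraries, a presence that helped to choose the stretch and is given without a test. Covered length was 2227, 1963 and 1957 bp in the vector libraries, 1514, 1471 and 1307 bp with ecSE1 and 2270, 2441 and 2101 bp with ecSE2. It was 1941, 1905 and 1237 bp with ecSE3, 1959, 1813 and 1647 bp with ecSE4, and 2039, 2726 and 1964 bp with the combination. The ecSE1 libraries were lowest as a group but for 1 ecSE3 library, and ecSE2 libraries overlapped the vector and the combination. Without flanks, on the gene alone, the counts of libraries with a peak were 18 and 0 as well. For CCAT2 they went from 18 and 1 with flanks to 10 and 1 on the gene alone, and for LOC105375754 from 18 and 3 to 11 and 0. In 10 of the 18 libraries the highest summit fell within 5 bp of 127416206, inside the gene.

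The height of that peak set ecSE2 apart. Its highest summit held 188, 165 and 250 fragments in the vector libraries and 701, 547 and 511 in the ecSE2 libraries. It held 133, 208 and 195 with ecSE1, 253, 219 and 162 with ecSE3, 238, 198 and 241 with ecSE4, and 209, 311 and 326 with the combination. Every ecSE2 library was above every other library. The local background there was higher too, at 256, 204 and 186 fragments with ecSE2 against 53.8 to 122 in the other 15 libraries, and the fold was 2.72 ± 0.0390 (SD, n = 3) against 2.72 ± 0.378 (SD, n = 3) with the vector.

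Heights were compared with limma on log2 fragments over the 1101 genes with a peak in every COLO320 DM library, each library centred on its median gene. ecSE2 against vector called 0.454% of the genes. POU5F1B rose by 1.17 ± 0.16 (SE, limma adjusted p = 7.85e-06), and by 1.501 ± 0.13 against ecSE1, ecSE3 and ecSE4 (SE, limma adjusted p = 1.00e-10), a comparison that called 0.545%. Scaling by the lowest background of the list in place of the median, which moved the median gene from -0.02 to 0.31, gave 1.495 for ecSE2 against vector. In the combination, which called 0.727% of genes, the POU5F1B difference was 0.36 ± 0.16 (SE) and did not pass (limma adjusted p = 0.443).

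At CCAT2 the same fit gave differences of 4.64 ± 0.18 with ecSE2 and 3.92 ± 0.18 with the combination (each SE). With ecSE2 and the combination the height is that of the domain summit, which the 2 kb beyond CCAT2 take in, so the known domain is described again. In the vector, ecSE1, ecSE3 and ecSE4 libraries the highest summit lay before CCAT2, from 127398170 to 127398514. The 2 differences therefore compare different positions, and the CCAT2 values of ecSE1, ecSE3 and ecSE4 belong to the place before CCAT2. For ecSE1, ecSE3 and ecSE4 against vector, where 0.182%, 0.0908% and 0.272% of genes were called, CCAT2 differed by -0.04, -0.65 and -0.52 and POU5F1B by -0.36, -0.38 and -0.26, none past the threshold (limma adjusted p from 0.240 to 0.963), and with the lowest background as scale CCAT2 with ecSE1 came to 0.15 and POU5F1B with ecSE4 to 0.06. The highest summit for LOC105375754 lay in its flank, past the end of the gene, and its height differed by -0.13 ± 0.15 with ecSE2 (SE, limma adjusted p = 0.875), or by 0.20 with the lowest background as scale. CASC8 and CASC21 extend beyond the stretch, so their highest summits are not read here.

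The constant sites showed how far the gain in summit fragments reached. The site before CCAT2 at chr8:127398170-127398532 held 171 to 178 fragments in vector libraries, 2627 to 3654 with ecSE2 and 974 to 1560 with the combination. The site past the domain at chr8:127406533-127406779 held 202 to 223, 3858 to 5178 and 1287 to 1956 fragments in the same order. At chr8:127391033-127391242 the values were 205 to 227, 747 to 900 and 276 to 476 fragments. At these 3 sites no ecSE2 library overlapped any library of the vector or of the combination in fragments. The authors' fold there ran only from 2.06 to 3.13, 2.39 to 3.38 and 1.89 to 2.60 over the COLO320 DM libraries. Local background was thus higher along with the summits, and the fold was not compared between groups.

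limma on log2 fragments over the 761 constant sites, each library centred on its median site, called 5.26% of them for ecSE2 against vector. Over the genome 9 sites were called higher and 31 lower. In the stretch 8 of 54 sites were called higher and 2 lower. Of the 8, the 3 nearest the summit lie in the 15 kb known beforehand and are a description, while the 5 farther out lie outside it. The 8 lay next to each other around the domain summit, and the rise was larger at the sites nearer to it. Neighbouring sites under 1 peak can share a summit and are then not independent. The rise was 3.94 ± 0.17 at 2.87 kb past the summit, 3.68 ± 0.18 at -5.43 kb and 3.04 ± 0.17 at -7.097 kb, the minus sign marking the side of lower coordinates (each SE). Farther out on that side it was 1.49 ± 0.19 at -12.6 kb, 0.89 ± 0.16 at -17.6 kb, 0.83 ± 0.14 at -18.9 kb, 0.50 ± 0.14 at -20.2 kb and 0.51 ± 0.13 at -26.4 kb (each SE), where the limma adjusted p values were at most 0.0347. On the far side no constant site lay between 2.87 and 19.0 kb, and the one at 19.0 kb differed by 0.37 ± 0.17 (SE, limma adjusted p = 0.179). POU5F1B, with its summit at 12.4 kb, lies in that gap and had a gene value of 1.17. That value comes from the fit over genes, centred on the median gene. It is thus not on the same scale as the 1.49 of the site at -12.6 kb on the other side.

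**Figure D4:**
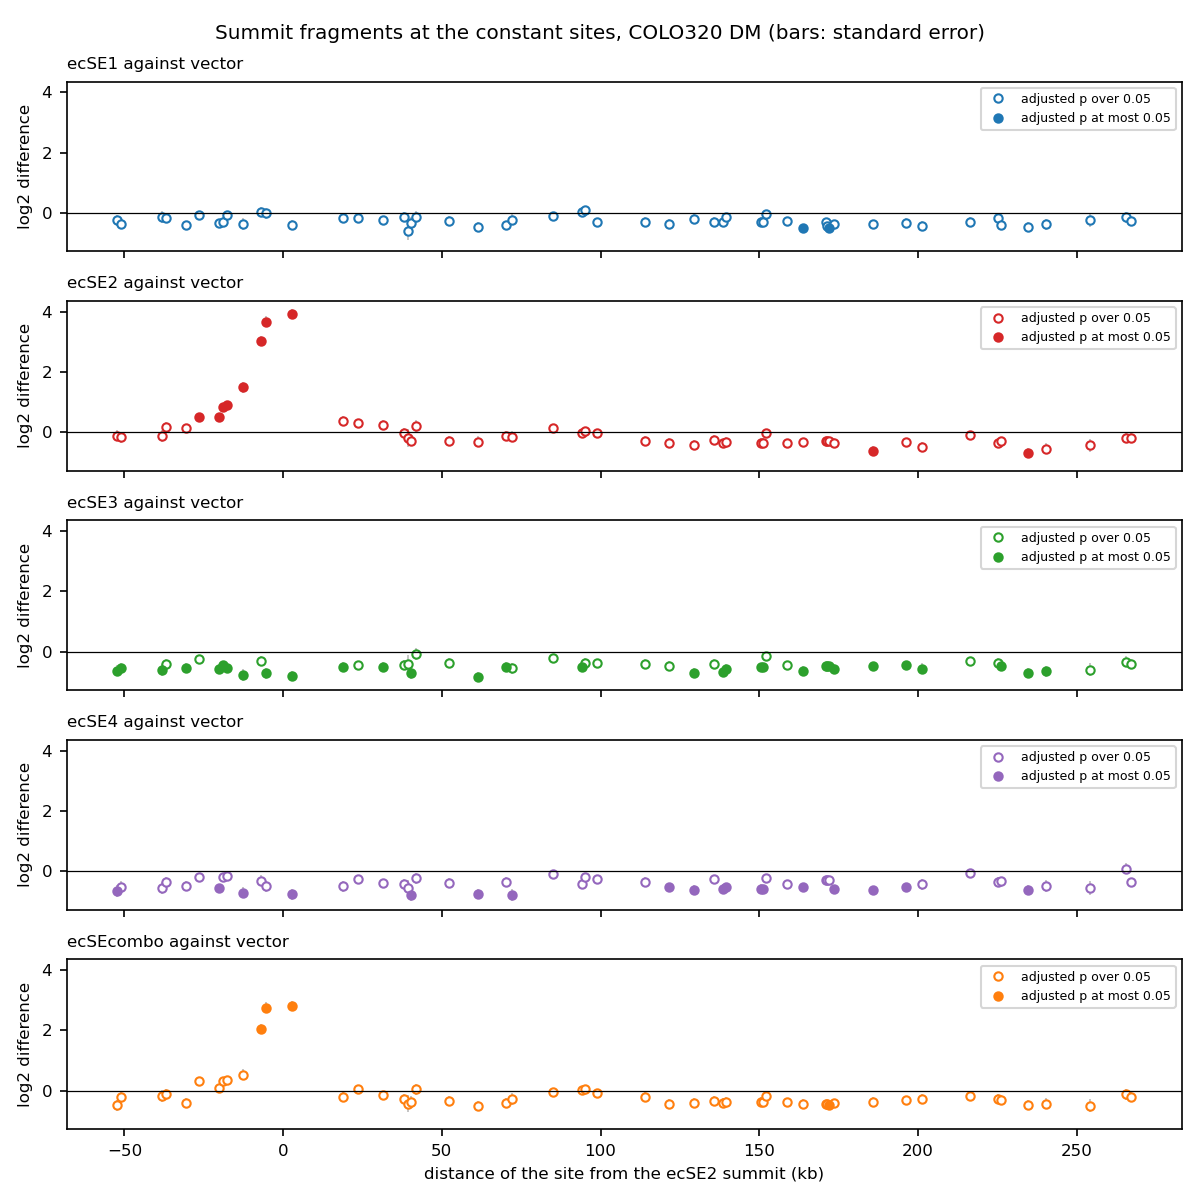
Log2 difference in summit fragments against vector, with its SE as a bar, at the 54 constant sites by distance from the ecSE2 summit in kb, 1 panel per COLO320 DM perturbation, libraries centred on their median site. Filled points have a limma adjusted p of at most 0.05. The 3 sites nearest 0 kb lie in the known domain. With ecSE2 the differences climb to 3.94 near 0 kb and with the combination to 2.82, and the lower points of ecSE3 and ecSE4 depend on the scaling, as 0 of them are called when libraries are scaled by their lowest background.

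Fewer sites passed the test with the combination, and the difference between the counts was not tested. It called 3.55% of all constant sites against vector, 17 higher and 10 lower. In the stretch 3 rose and 1 fell, or 7 rose and 0 fell with the lowest background as scale. The 3 were those in the known domain, at 2.82 ± 0.17, 2.76 ± 0.18 and 2.06 ± 0.17 (each SE), against 3.94, 3.68 and 3.04 with ecSE2. Against ecSE1, ecSE3 and ecSE4, ecSE2 called 3.15% of all sites, 13 higher and 11 lower. In the stretch 13 rose and none fell. These ran without a break from chr8:127366640-127367213, at -36.9 kb from the summit, to chr8:127434889-127435309, at 31.3 kb, with differences of 0.48 ± 0.13 and 0.64 ± 0.12 at those ends (each SE).

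Lower heights elsewhere depended on the scaling. With the median as reference, 2 sites of the stretch fell with ecSE1, 32 with ecSE3 and 18 with ecSE4. Of all sites 4.07%, 12.2% and 8.28% were called, 19, 89 and 59 of them lower. Scaled by the lowest background of each list, 0 sites of the stretch were called in any of the 3. That scaling moved the median of all sites from -0.12 to 0.27 with ecSE2 and from -0.09 to 0.23 with ecSE3. With it 15 sites of the stretch rose with ecSE2 and none fell, so that the falls at chr8:127589537-127589910 (-0.62) and chr8:127638404-127638592 (-0.70) were not called. Without vector replicate 1 the sites called with ecSE3 and ecSE4 came to 0, and without vector replicate 2 to 12 and 7. Without ecSE2 replicate 1, 6 sites in place of 10 were called with ecSE2.

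Most genes around the stretch also had a peak in more COLO320 DM than PC3 DM libraries. Fisher's exact test on peak presence in 22358 genes, each with 2 kb on each side, called 2.1% higher in COLO320 DM. Of the 5 genes of the stretch, CASC8 and CASC21 had a peak in too many libraries to be tested, and POU5F1B is left out as known. CCAT2 and LOC105375754 were called with 2 kb flanks. Among 8q24 neighbours 7 of 8 tested were called, all higher in COLO320 DM. PCAT1, PCAT2 and PRNCR1, noncoding RNA genes named for prostate cancer, had a peak in 18 of 18 COLO320 DM libraries and in 4, 2 and 4 of 16 PC3 DM libraries. CASC19 and CCAT1 had one in 18 COLO320 DM libraries and in 1 and 4 PC3 DM libraries, and CASC11 in 18 and 7. MYC, the oncogene that ecDNA of both lines carries, had one in 16 of 18 and 5 of 16. PVT1 was met in 18 and 16 libraries, CASC21 in 18 and 14, CASC8 in 18 and 15, CCAT2 in 18 and 1, and CCDC26 in 17 and 16. LRATD2, with 7 and 2, was not called (Fisher's exact test, adjusted p = 0.326). The lists were chosen with results of these data known, and the median difference over tested genes, 75.0 percentage points for the neighbours, stands beside -13.2 points for all genes tested.

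The relatives of POU5F1B seldom had a peak. POU5F1, from which it was copied, had none in any of the 34 libraries. The other copies had at most 1 library in either line: POU5F1P2 in 1 COLO320 DM library, POU5F1P5 in 1 of each line, and POU5F1P3, POU5F1P6 and POU5F1P7 in 1 PC3 DM library each. Of the 15 POU family genes, transcription factors that share a POU domain, 5 could be tested and 1 was called, POU3F3 with 17 COLO320 DM and 6 PC3 DM libraries (Fisher's exact test, adjusted p = 0.0185). POU2F1 had a peak in all libraries. POU2F2, POU2F3 and POU5F2 had a peak in 1 COLO320 DM library each and in 4, 6 and 2 PC3 DM libraries. POU1F1, POU3F4 and POU4F2 had 1 library in each line, POU4F1 1 in COLO320 DM and POU3F2 1 in PC3 DM. Reads from such near copies may be shared or dropped by the aligner, and no source used here says how the authors treated them.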

How the data were processed

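Each of the 34 libraries has its own deposited peak list. The build is hg38. The submitters' processing notes name MACS2 2.2.7.1, Bowtie2 2.3.5, Trim Galore 0.6.6, bedtools and SAMtools without saying what each did. An FDR of 0.001 and removal of blacklisted regions stand in the list names. Use of a control library and treatment of duplicates are not given in the sources used here. The fold is the authors' ratio of summit to local background, the authors' -log10 p and -log10 q columns hold the peak caller's Poisson p-value and its adjusted q-value, and the deposited score, which repeats -log10 q on another scale, was left aside.

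Depth is unknown, as no read totals were used here, and no counting interval is given. Lists held 9385 to 125214 peaks. Summit fragments and local background were recovered from the fold and p-value (tolerance 0.0005 in -log10 p, or 1e-05 of larger values) for at least 99.1% of the stretch's peaks in each library. Local background includes signal of the domain around it. The lowest background of a list, also used for scaling, is the lowest among 2000 of its peaks drawn at random. Lists were called per library and are not scaled between libraries.

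Groups came from the sample titles. Covered length was compared with permutation tests, peak presence per 5 kb bin or gene with Fisher's exact test (only features where at least 3 libraries had a peak and at least 3 had none), and covered bp per bin with limma (trend, robust) on log2(bp + 100), each over the autosomes and X with Benjamini-Hochberg adjustment at 0.05. The heights of constant sites and genes and the fit over both lines were added after the data were seen. Named genes were those overlapping the stretch, 12 neighbours on 8q24 (TMEM75 had no entry in the gene table), 15 POU genes and 7 genes named POU5F1 or its copies, named where at least 1 library had a peak, except 1 gene that is not reported here. Members and lists were chosen with earlier results of these data known. Fisher's test on bins, limma on bins within a line and limma on constant-site heights were tested on simulated data. The gene heights and the fit over both lines had no such test of their own.

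Alternatives were -log10 q of at least 5, lists cut to 9385 peaks, 10 kb bins, pseudocounts of 10 and 500 bp, a lower filter, the number of peaks as covariate, the replicate number as a block, gene flanks, leaving out the 2 lists of over 100000 peaks and each replicate in turn. Sequence is not printed. Software was R 4.3.3 with limma 3.58.1, and Python 3.11.15 with scipy 1.17.1, pandas 2.3.3 and numpy 2.4.6.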

Additional observations from a re-analysis of the deposited data

How the results depend on the processing

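Of 216 alternatives that changed a setting, 191 kept the direction and the side of the threshold (counts within 1.5 times), as did 701 of 728 that left out a library. The covered length difference between perturbed and vector COLO320 DM libraries was -0.341 as a percent of all covered length (exact permutation p = 0.120), and -1.47 to 9.43 kb over left-out libraries. In PC3 DM it was -0.944 kb at -log10 q of at least 5 (exact permutation p = 0.05). Between lines, 35 of 35 bins of 10 kb were called, and 36 bins of 5 kb with vector libraries alone under limma. The bins called for ecSE2, for the combination and for ecSE2 against the other single perturbations came to 0 with a pseudocount of 10 bp and to 0 with a peak in at least 1 library, and the cause was not tested. For ecSE3 and ecSE4 they were 0 to 1 over left-out libraries, with 1 only without vector replicate 3.

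The number of constant sites called for ecSE1 was 0 scaled by the lowest background, 1 scaled by sites outside chromosome 8, 9 without the lists of over 100000 peaks and 0 to 9 over left-out libraries. With the lowest background as scale it was 0 for ecSE3, 0 for ecSE4, 7 for the combination and 24 for ecSE2 against the other single perturbations, and the combination had 9 without the long lists. Over left-out libraries it was 6 to 11 for ecSE2, 0 to 41 for ecSE3, 0 to 26 for ecSE4, 3 to 9 for the combination, with 9 only without ecSE1 replicate 2, and 12 to 13 for ecSE2 against the others. Without ecSE3 replicates 1, 2 and 3 in turn it was 4, 11 and 1 for ecSE3, and without ecSE4 replicates 1 and 3 it was 1 and 4 for ecSE4. The lowest background as scale reversed the CCAT2 height with ecSE1 to 0.15, the LOC105375754 height with ecSE2 to 0.20 and with the combination to 0.015, and the POU5F1B height with ecSE4 to 0.061. The CCAT2 height with ecSE1 was 0.09 without vector replicate 1 and 0.14 without ecSE1 replicate 3 (-0.22 to 0.14 over left-out libraries), and that of LOC105375754 with ecSE2 was 0.014 without vector replicate 1 (-0.25 to 0.014). None of these was past the threshold.

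Libraries of the same replicate number showed little pairing in correlations of deviations. These ran from -0.0587 to 0.124 over 45 same-number pairs in COLO320 DM, 1 of them over 0.1, and from -0.0390 to 0.0786 over 36 in PC3 DM. Whether the numbers pair the site heights was not tested, and the block raised the number of sites called for each perturbation against vector. With the replicate number as a block, 66 bins were called between lines and 1, 1 and 1 for the ecSE2 and combination comparisons, with sites called at 4 for ecSE1 and 11 for the combination, and the CCAT2 height with ecSE3, -0.65, passed (limma adjusted p = 0.0101). With the block the sites called also came to 42 for ecSE3, 26 for ecSE4 and 11 for ecSE2, where 32, 18 and 10 were called without it. Of the 11 for the combination, 4 rose and 7 fell. Depth is unknown, and at 4 to 7 fragments a summit PC3 DM peaks near CCAT2 are close to the smallest that can be called. With lists of equal length no bin of the stretch could be tested within PC3 DM.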
